A study of Mus musculus with 40 samples.

Results

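Astrocytes send processes to blood vessels, and these endfeet carry a membrane complex built around the water channel AQP4. The values of 7 genes tied to these endfeet (Aqp4, Dag1, Dmd, Dtna, Mlc1, Hepacam and Agrn) in mouse striatum were taken as the rows of a count table that carry these symbols, 7 of 24060 rows. Each gene was followed through the 10 groups of 4 libraries, in RNA precipitated with tagged ribosomes (IP) against the input of the same tissue and in Dlgap3 KO against WT mice. In RiboTag experiments an adeno-associated virus (AAV) carries the HA-tagged ribosomal protein RPL22 into the cells that its promoter selects, and an antibody to HA then recovers the RNA on the ribosomes of those cells.

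The Control groups were C57/BL6NTac mice (4 animals, IP and input of each). The labels name no virus for them. They were taken as the astrocyte RiboTag, made with AAV2/5 and the GfaABC1D promoter, because over 1104 genes read from a supplementary table of the study the counts of its 4 astrocyte IP libraries were identical to those of the 4 Control IP libraries. The Syn groups were C57/BL6NTac mice with the neuron RiboTag, made with the human SYN1 promoter. The methods name AAV1 for it, while the study's list of constructs gives another serotype. Their labels give IP and input libraries different animal numbers, so only the number in the title ties an IP to an input. The SAPAP3 cohort held C57/BL6J WT mice and mice in which Dlgap3, the gene for the postsynaptic scaffold protein SAPAP3, was knocked out, again with IP and input of 4 animals each. Neither the labels nor the methods name the cell type of the RiboTag in this cohort, and its IP is given here without one. The cell type markers of this IP are given below. Bulk striatal RNA came from 4 WT and 4 Dlgap3 KO mice that the labels place on the C57/BL6NTac strain, and 1 animal number stands on both a WT and a KO library. The virus was injected at 6 weeks of age in WT mice and at 4.5 months in the experiments with SAPAP3 KO mice.

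The exons of the 7 genes were placed with RefSeq on GRCm38.p6, which is mm10. Aqp4 lies at chr18:15389394-15410982 (minus strand), Dtna at chr18:23310006-23659719 (plus), Dag1 at chr9:108204861-108263977 (minus), Hepacam at chr9:37367356-37386572 (plus), Mlc1 at chr15:88955884-88982693 (minus), Agrn at chr4:156165290-156197533 (minus) and Dmd at chrX:82814664-85205050 (plus). Their merged exons run from 2860 bases in Mlc1 to 18975 bases in Dmd. The counts are per gene, so the short dystrophins that start inside the gene and the full-length form were counted together: of the curated Dmd transcripts, 1 starts at position 82948870 and 5 at position 85048295. An antisense RNA overlaps 2.55% of the exon bases of Aqp4 and 5.06% of those of Agrn, and strand use in the counting is not given in the sources used here.

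In an endfoot AQP4 is anchored by the dystrophin complex. Dystrophin (Dmd) is its rod, alpha-dystrobrevin (Dtna) binds dystrophin and the syntrophins, and dystroglycan (Dag1) spans the membrane and holds laminin and agrin (Agrn) of the vascular basement membrane. MLC1 and the adhesion molecule HepaCAM (Hepacam) form a second complex at astrocyte contacts and endfeet, and mutations in either gene cause a leukodystrophy with cysts. Agrin is also made by neurons, vascular cells and muscle, and dystrophin and dystrobrevin are also made by neurons and muscle.

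The 250 bases before an annotated start are shown for 4 of the genes, to set the pair of the second complex (Mlc1 and Hepacam) beside the internal start of Dmd and beside Agrn, the gene whose IP values ran apart from the rest. Capitals mark matches to TTGGCA, a motif of the NFI factors. AACAAT, a SOX motif, and TATAAA were searched as well and had no match in these 4 windows. Each motif was searched on both strands. Sequences are from RefSeq (GRCm38.p6), 5′ to 3′ on the strand of the gene.
Mlc1, chr15:88978554-88978803, minus strand: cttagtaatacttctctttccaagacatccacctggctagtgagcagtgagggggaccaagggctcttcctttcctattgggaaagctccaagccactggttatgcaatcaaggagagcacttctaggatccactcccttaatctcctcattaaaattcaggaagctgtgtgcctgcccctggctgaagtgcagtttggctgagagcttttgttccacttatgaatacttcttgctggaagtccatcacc
Hepacam, chr9:37367356-37367605, plus strand: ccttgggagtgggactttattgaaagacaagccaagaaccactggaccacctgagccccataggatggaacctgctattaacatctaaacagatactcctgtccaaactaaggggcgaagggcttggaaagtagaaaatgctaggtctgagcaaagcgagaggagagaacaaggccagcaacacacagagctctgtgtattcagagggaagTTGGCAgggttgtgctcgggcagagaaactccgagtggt
Dmd, internal start, chrX:85048045-85048294, plus strand: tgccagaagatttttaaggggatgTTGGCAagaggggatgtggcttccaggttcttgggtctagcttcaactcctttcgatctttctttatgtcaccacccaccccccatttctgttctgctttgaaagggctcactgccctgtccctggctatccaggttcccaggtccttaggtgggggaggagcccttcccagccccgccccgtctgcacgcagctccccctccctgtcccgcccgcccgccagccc
Agrn, chr4:156197489-156197738, minus strand: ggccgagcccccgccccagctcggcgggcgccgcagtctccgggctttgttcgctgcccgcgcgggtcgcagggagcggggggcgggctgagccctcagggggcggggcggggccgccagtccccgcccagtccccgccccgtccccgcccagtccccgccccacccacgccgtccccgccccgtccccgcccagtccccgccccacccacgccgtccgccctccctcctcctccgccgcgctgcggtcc

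TTGGCA was found once before Hepacam and once before the internal start of Dmd, and neither the Mlc1 nor the Agrn window held it. These windows depend on the start chosen. The Mlc1 window precedes the curated start at 88978553, and the region before its other curated start, at 88978989, was not searched. Both the Mlc1 and the Hepacam windows lie within the annotated span of the gene. The window before the Dmd start at 82948870, not shown, held 1 match to TATAAA and none to TTGGCA. Of 32851 mouse promoters of the same length, 12.3% held TTGGCA, 9.42% AACAAT and 12.4% TATAAA. The Agrn window is 83.6% G and C, against 48% for Mlc1, 50.4% for Hepacam and 60% for the internal Dmd start. Dag1, whose windows held none of the 3 motifs, is not shown, and Aqp4 and Dtna are named only.

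The libraries held 23438112 to 84109800 counts, and the smallest count of any of the 7 genes in any library was 1516. Values in single libraries are given as CPM, the counts of a gene per 1000000 counts of the library. Counting error was not separated from the spread between animals. Dlgap3, the targeted gene, was at 375.5 to 514.4 CPM in WT input and 165.8 to 200.03 CPM in KO input of the SAPAP3 cohort, and at 232.2 to 385.5 against 143.5 to 160.9 CPM in bulk RNA, so it was lower in every KO library of both sets but not absent. All 10 astrocyte markers were called higher in the Control IP, with a summed level of 2222 to 2293 CPM in the inputs and 11972 to 12424 CPM in the IPs. All 10 were also called higher in the WT IP (2380 to 2640 against 9602 to 12673 CPM) and the KO IP (2397 to 2564 against 10613 to 13300 CPM). Of 10 neuron markers 1 was called lower and none higher in each of these SAPAP3 cohort IPs. Their summed level was 6517 to 6946 CPM in the WT inputs and 3845 to 4879 CPM in the WT IPs. The Control mice had Y-linked counts and no more than 1 Xist count, the Syn mice had Xist and no Y-linked counts, and 1 mouse of each SAPAP3 cohort genotype and 1 bulk WT mouse had the Xist counts of a female. Cell type, cohort and sex therefore cannot be told apart between the Control and Syn groups.

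In bulk RNA and in an IP alike, fewer cells of a type and less RNA per cell cannot be told apart. The adjusted p-values below come from the quasi-likelihood test of edgeR with TMM scaling, which sets the typical gene near no change, and are adjusted by Benjamini-Hochberg over all genes tested. Between IP and input, a call required an adjusted p under 0.05 together with a log2 fold change above 1 or below -1. CPM values use library totals, so a TMM fold change differs from the ratio of the CPM. With library totals the median log2 fold change of all genes was -0.25 in the Control, -0.21 in the Syn, -0.20 in the WT and -0.21 in the KO comparison.

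Of the 7 genes, 5 were called higher in the Control IP than in its input (Aqp4, Mlc1, Hepacam, Dtna and Dag1), where 13.4% of the 15476 genes tested were called higher. None was called lower, against 13.5% of all genes. Without a fold limit all 7 passed, against 80.4% of all genes. The CPM ranges of IP and input did not overlap for any of the 7, as for 77.2% of all genes.

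Aqp4, the water channel, stood at 121.5, 121.9, 129.3 and 142.9 CPM in the 4 Control inputs. In the IPs of the same animals it stood at 835.2, 840.7, 935.0 and 1091 CPM. Every IP library was 6.87 to 7.63 times its own input, and the animal with the highest input also had the highest IP. The log2 fold change was 3.07 ± 0.088 (SE, n = 4 against 4, adjusted p = 6.61e-11 by edgeR). The SAPAP3 cohort ran in the same direction. WT inputs held 220.4, 193.2, 191.1 and 221.6 CPM and WT IPs 977.3, 1122, 1107 and 1248 CPM, a log2 fold change of 2.60 ± 0.097 (adjusted p = 1.76e-07 by edgeR). KO inputs held 182.4, 189.8, 208.7 and 200.8 CPM and KO IPs 955.9, 1176, 1395 and 1205 CPM, a log2 fold change of 2.80 ± 0.11 (adjusted p = 1.74e-08 by edgeR).

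In the neuron RiboTag the sign of the Aqp4 fold change depended on the scaling. Aqp4 was at 216.7 to 250.6 CPM in the Syn inputs and at 142.6 to 196.4 CPM in the Syn IPs, and the ranges did not overlap. The log2 fold change was -0.20 ± 0.087 (adjusted p = 0.0654 by edgeR), and with the replicate number as a block, which pairs IP and input, it was -0.20 (adjusted p = 0.000627 by edgeR). Scaled to ribosomal protein genes, which put the median of all genes at 0.45, it was 0.26 (adjusted p = 0.0177 by edgeR). With library totals it was -0.40, and -0.37 among genes above 5 FPKM (CPM per kilobase of exon) in at least 4 libraries, both with an adjusted p under 0.05. Across the 10 groups the IPs of the Control mice and the SAPAP3 cohort led for Aqp4, at 925.4 to 1183 CPM on average, with ranges that overlapped between neighbours in the order. All other groups lay between 128.9 and 235.8 CPM, again with neighbours that overlapped.

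**Figure D1:**
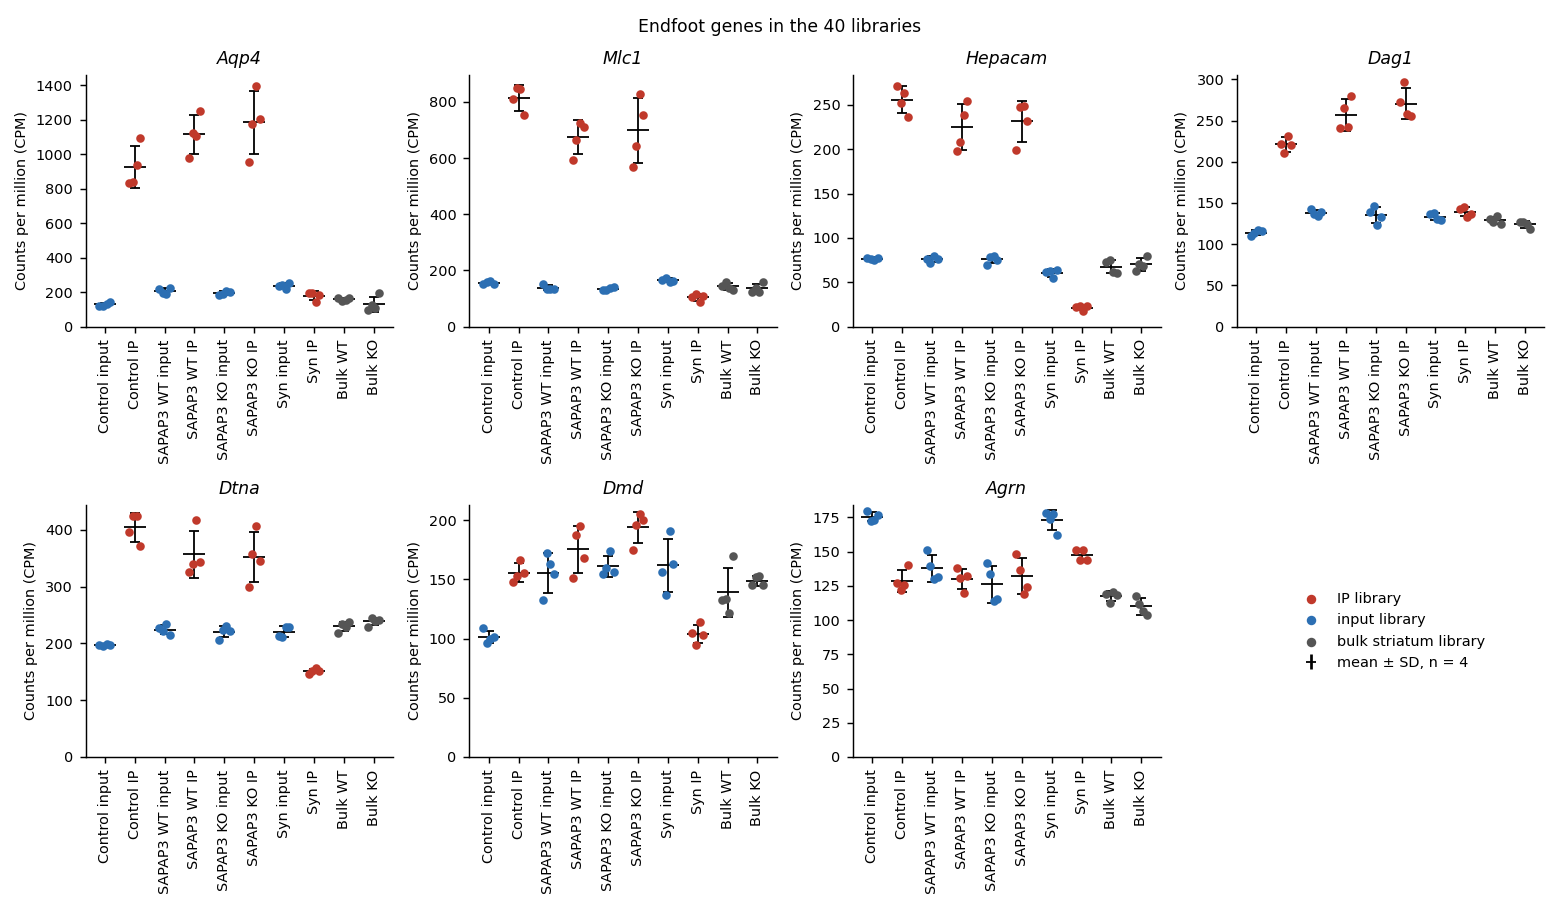
CPM (vertical axes, linear from 0) of the 7 genes in the 40 libraries, by group (horizontal axes). Points are libraries, bars are the mean ± SD of 4. Aqp4, Mlc1 and Hepacam were several times higher in the Control and SAPAP3 cohort IPs than in all other groups, Agrn was highest in the Control and Syn inputs, and Hepacam was lowest in the Syn IP.

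Mlc1 and Hepacam, whose proteins hold a chloride channel at astrocyte contacts, both rose. Mlc1 was at 150.4, 158.0, 161.7 and 152.9 CPM in the Control inputs and at 808.8, 849.4, 844.6 and 751.9 CPM in the IPs. Its log2 fold change was 2.61 ± 0.0496 (adjusted p = 4.04e-12 by edgeR). Hepacam was at 77.7, 76.5, 74.8 and 77.7 CPM in the inputs and at 271.6, 252.1, 263.6 and 236.1 CPM in the IPs. Its log2 fold change was 1.96 ± 0.046 (adjusted p = 1.65e-11 by edgeR). In the SAPAP3 cohort the log2 fold changes of Mlc1 were 2.45 ± 0.087 in WT and 2.58 ± 0.11 in KO, and those of Hepacam were 1.73 ± 0.092 and 1.82 ± 0.084, all called. Mlc1 ranged there from 3.92 to 5.37 times its own input in WT and from 4.34 to 6.05 times in KO, against 4.92 to 5.38 times in the Control mice.

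Hepacam alone of the 7 genes was called lower in the Syn IP, where 15.8% of the 16198 genes tested were called lower and 0.42% higher. It was at 61.5, 63.1, 54.4 and 64.2 CPM in the Syn inputs and at 21.7, 23.2, 18.02 and 23.5 CPM in the Syn IPs. That is 0.331 to 0.368 of the input with the same number, a log2 fold change of -1.29 ± 0.078 (adjusted p = 4.81e-07 by edgeR). Mlc1 was at 157.6 to 174.5 CPM in the Syn inputs and 88.8 to 116.1 CPM in the Syn IPs, a log2 fold change of -0.45 ± 0.068 (adjusted p = 0.000168 by edgeR) that did not reach the fold limit. Scaled to ribosomal protein genes Hepacam stood at -0.83 and was no longer called, and Mlc1 stood at 0.0027, where the median of all genes was 0.45. The Syn IP was the lowest of the 10 groups for both genes, and it did not overlap the next group in the order.

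Among the dystrophin complex genes, Dtna and Dag1 were called higher in the Control IP and Dmd was not. Dtna was at 197.2, 195.8, 199.6 and 197.9 CPM in the inputs and at 396.2, 425.0, 423.9 and 371.0 CPM in the IPs (log2 fold change 1.25 ± 0.046, adjusted p = 4.88e-10 by edgeR). Dag1 was at 109.7, 113.8, 117.0 and 115.4 CPM in the inputs and at 221.6, 210.2, 231.5 and 220.6 CPM in the IPs (log2 fold change 1.18 ± 0.038, adjusted p = 1.74e-10 by edgeR). With library totals in place of TMM, Dag1 stood at 0.95 and was not called. Dmd was at 108.9, 96.3, 99.6 and 100.9 CPM in the inputs and at 147.4, 153.1, 166.5 and 155.4 CPM in the IPs, without overlap. Its log2 fold change of 0.84 ± 0.048 (adjusted p = 2.05e-08 by edgeR) lay under the fold limit. Scaled to ribosomal protein genes it was 2.04 and called higher, as were 60.1% of all genes, whose median was 1.17.

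In the SAPAP3 cohort, Dag1 was the only one of these 3 called, with log2 fold changes of 1.07 ± 0.065 in WT and 1.20 ± 0.075 in KO (0.90 and 0.996 with library totals, not called). Dtna stood at 0.84 ± 0.088 in WT and 0.88 ± 0.091 in KO. Dmd stood at 0.35 ± 0.11 and 0.47 ± 0.068. These 4 values of Dtna and Dmd passed the adjusted p but not the fold limit. With ribosomal protein scaling all 4 were called, where 5904 genes in WT and 5243 in KO were called in either direction. The medians of all genes on that scale were 0.71 in WT and 0.62 in KO. Dmd in WT no longer passed with library totals, at 0.17 (adjusted p = 0.154 by edgeR), or without replicate 2 or 3 of the WT IPs (0.30 and 0.27). The Dmd ranges overlapped in WT, at 132.4 to 171.9 CPM in the inputs and 151.1 to 195.1 CPM in the IPs. Of the 7 genes, 4 (Aqp4, Mlc1, Hepacam and Dag1) were called higher in the WT IP, against 10.9% of 15587 genes. These 4 were also called higher in the KO IP, against 12.3% of 15583 genes. None was called lower in either, against 12.1% and 11.5% of all genes. Without a fold limit 6 of the 7 passed in WT and 7 in KO, against 67.3% and 71.9% of all genes. With library totals 5 passed in WT, Dmd being lost, and 6 in KO, Agrn being lost. The ranges of IP and input did not overlap for 5 of the 7 in WT (62.7% of all genes) and for 6 of the 7 in KO (68.7%).

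The dystrophin complex genes took both signs in the Syn IP under TMM scaling, where Dag1 alone of the 7 was positive. With ribosomal protein scaling 6 of the 7 were positive, and the median of all genes was 0.45. With TMM the log2 fold change of Dag1 was 0.27 ± 0.039 (adjusted p = 0.000154 by edgeR). Its ranges overlapped, at 129.6 to 137.3 CPM in the inputs and 132.6 to 145.6 CPM in the IPs. It no longer passed with library totals, at 0.061 (adjusted p = 0.195 by edgeR), or with the FPKM filter, at 0.088 (adjusted p = 0.0588 by edgeR). Dtna was at 211.6 to 229.6 CPM in the inputs and 146.9 to 156.8 CPM in the IPs (log2 fold change -0.34 ± 0.043, adjusted p = 5.88e-05 by edgeR). Dmd was at 136.9 to 191.1 against 94.3 to 113.6 CPM (log2 fold change -0.43 ± 0.096, adjusted p = 0.0023 by edgeR). With ribosomal protein scaling Dtna stood at 0.12 and Dmd at 0.013, neither past the threshold. Without a fold limit 5 of the 7 passed, against 71.3% of all genes, and Aqp4 passed as well with the replicate block. For 6 of the 7 the Syn IP and input ranges did not overlap, against 62.5% of all genes.

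**Figure D2:**
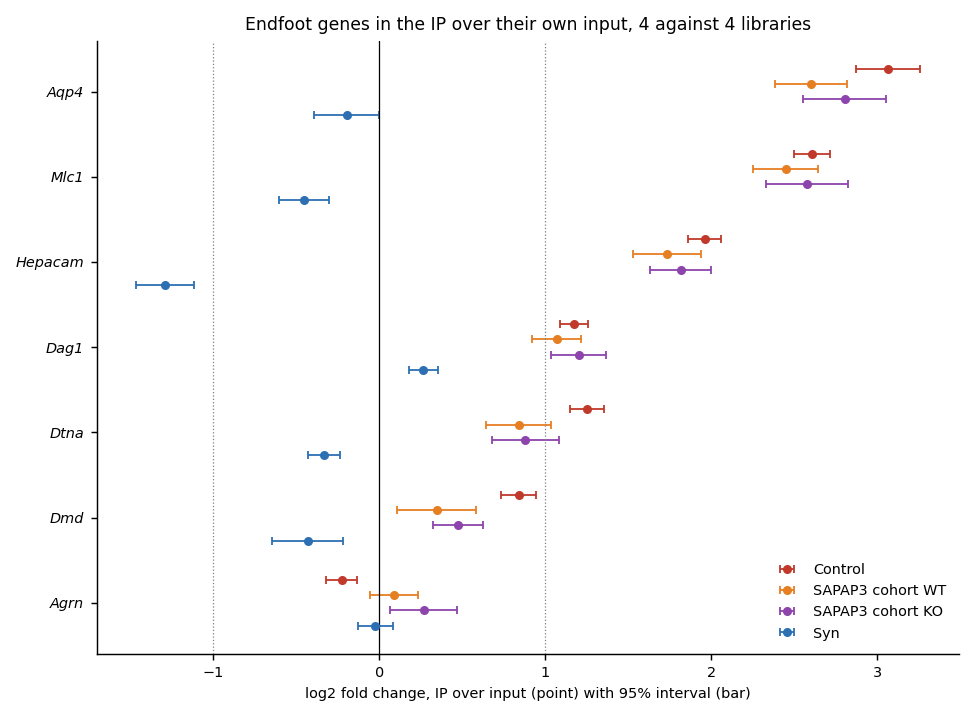
log2 fold change of IP over input (horizontal axis) of the 7 genes (vertical axis) in the Control, SAPAP3 cohort WT, SAPAP3 cohort KO and Syn groups. Points are edgeR estimates from 4 against 4 libraries, bars their 95% intervals, dotted lines the fold limit of 1. Aqp4 (3.07, 2.60 and 2.80) and Mlc1 (2.61, 2.45 and 2.58) led in the Control and SAPAP3 cohort IPs, and Hepacam (-1.29) was lowest in the Syn IP.

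Agrn, the basement membrane ligand of dystroglycan, was at 179.4, 172.3, 173.1 and 176.5 CPM in the Control inputs. It was at 127.0, 121.6, 125.5 and 140.2 CPM in the Control IPs, lower in every IP library. The log2 fold change was -0.23 ± 0.043 (adjusted p = 0.000477 by edgeR), under the fold limit. Scaled to ribosomal protein genes it was 0.97, on a scale where the median of all genes was 1.17. Agrn in the Syn IPs was at 143.8 to 151.4 CPM against 162.3 to 178.4 CPM in the inputs, which TMM scaling placed at -0.023 ± 0.046 (95% interval -0.13 to 0.08). With library totals it was -0.23, with the FPKM filter -0.20 and with ribosomal protein scaling 0.43 (median of all genes 0.45), each with an adjusted p under 0.05. In the SAPAP3 cohort it stood at 0.087 ± 0.065 in WT (adjusted p = 0.255 by edgeR) and 0.27 ± 0.091 in KO (adjusted p = 0.0209 by edgeR), with overlapping ranges in both. The KO value no longer passed with library totals, at 0.064 (adjusted p = 0.536 by edgeR), with the FPKM filter, at 0.19 (adjusted p = 0.0891 by edgeR), or without replicate 1 of the KO IPs or replicate 3 or 4 of the KO inputs (0.22 to 0.23). With ribosomal protein scaling the WT value was 0.83 and passed, where the median of all genes was 0.71. Agrn was highest in the Control and Syn inputs (175.3 and 173.0 CPM on average, overlapping each other) and lowest in bulk RNA (117.6 CPM in WT and 110.0 CPM in KO).

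Whether the enrichment differed between the Control and Syn IPs was tested with an interaction term. All 7 genes passed, where 70.1% of 16371 genes did. The difference of the log2 fold changes (Control minus Syn) was 3.26 ± 0.13 for Aqp4, 3.25 ± 0.093 for Hepacam and 3.06 ± 0.088 for Mlc1. It was 1.59 ± 0.066 for Dtna, 1.28 ± 0.12 for Dmd and 0.91 ± 0.053 for Dag1. For Agrn it was -0.20 ± 0.065 (adjusted p = 0.0106 by edgeR). The Agrn difference was 0.54 with ribosomal protein scaling (median of all genes 0.72). The Agrn difference missed the threshold with the FPKM filter (-0.066) and with all 10 groups in the fit (-0.15).

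The Control IP was compared with the WT IP of the SAPAP3 cohort in the same way. Of the 7 genes, 4 passed, against 20.5% of 16032 genes. The differences (Control minus SAPAP3 cohort WT) were 0.44 ± 0.13 for Aqp4, 0.48 ± 0.12 for Dmd, 0.39 ± 0.1002 for Dtna and -0.33 ± 0.078 for Agrn. The intervals for the other 3 were -0.068 to 0.24 for Dag1, -0.07 to 0.34 for Mlc1 and -0.016 to 0.43 for Hepacam. Aqp4 lost its call without replicate 1 or 2 of the Control inputs, replicate 1 of the WT IPs or replicate 4 of the WT inputs (0.38 to 0.42), and Hepacam gained one without replicate 4 of the WT IPs (0.28). With all 10 groups in the fit Aqp4 missed the threshold at 0.49 (adjusted p = 0.0578 by edgeR). With ribosomal protein scaling Dag1 (0.57), Mlc1 (0.61) and Hepacam (0.68) passed as well, while Agrn turned to 0.14 and did not. On that scale 8794 genes passed in all, and the median of all genes was 0.45. The Control inputs had the lowest means of the 10 groups for both Aqp4 and Dmd, at 128.9 and 101.4 CPM, but overlapped the next group in the order (bulk KO at 131.0 CPM for Aqp4 and the Syn IP at 103.9 CPM for Dmd), while the SAPAP3 cohort WT inputs stood at 206.6 and 155.5 CPM. Strain, age at injection and cohort cannot be told apart in this comparison.

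Marker genes of other cells moved with these IPs. Over all genes 13.4%, 10.9% and 12.3% were called higher in the Control, WT and KO IPs. The shares called lower were 13.5%, 12.1% and 11.5%. In the Syn IP 0.42% of all genes were called higher and 15.8% lower. Ependymal cells also make AQP4, and all 10 ependymal markers were called higher in the Control IP, with summed levels of 31.0 to 43.0 CPM in the inputs and 83.8 to 163.9 CPM in the IPs. All 10 were also called higher in the WT IP (34.2 to 44.8 against 123.9 to 158.8 CPM) and the KO IP (34.1 to 38.4 against 101.1 to 181.4 CPM). Of 10 oligodendrocyte markers, 4 were called higher in the WT IP and 5 in the KO IP, against none higher and 1 lower in the Control IP. Their summed level was 5826 to 6767 CPM in the WT inputs and 7182 to 10522 CPM in the WT IPs. Of 10 markers of oligodendrocyte precursors none, 1 and 5 were called higher in the Control, WT and KO IPs, with medians of 0.18, 0.85 and 1.03, and summed levels of 315.7 to 338.9 CPM in the KO inputs and 459.6 to 571.9 CPM in the KO IPs. All 10 endothelial and all 10 microglia markers were called lower in these 3 IPs, and of the mural cell markers 3, 2 and 3 were called higher and 6 in each lower (Control, WT and KO). Among the Syn IPs none of the 10 ependymal markers was called, 2 of the 10 astrocyte markers and all 10 oligodendrocyte and 9 of 10 precursor markers were called lower, and 3 of 10 neuron markers were higher. The summed astrocyte markers were at 1641 to 1990 CPM in the Syn IPs and 2387 to 2539 CPM in the Syn inputs. Without a fold limit 7 of these 10 passed as lower and 2 as higher. No cell type marker was at 0 throughout a group. The part of these cells in the values of the 7 genes was not tested.

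Levels between genes were compared as FPKM, computed from the merged exon length. Mlc1 was the highest of the 7 in all 40 libraries and Dmd the lowest in 37. In the Control inputs the mean levels were 54.5 ± 1.8 FPKM for Mlc1, 22.96 ± 0.40 FPKM for Hepacam, 21.5 ± 1.7 FPKM for Aqp4, 19.1 ± 0.53 FPKM for Dag1, 16.5 ± 0.13 FPKM for Dtna, 14.9 ± 0.28 FPKM for Agrn and 5.34 ± 0.28 FPKM for Dmd (SD, n = 4). In the Control IPs they were 285 ± 16 FPKM for Mlc1, 154 ± 19.9 FPKM for Aqp4, 76.6 ± 4.6 FPKM for Hepacam, 36.95 ± 1.5 FPKM for Dag1, 33.8 ± 2.2 FPKM for Dtna, 10.9 ± 0.69 FPKM for Agrn and 8.20 ± 0.42 FPKM for Dmd. In FPKM the channel and the MLC1 pair thus stood above the dystrophin complex genes in the Control IP, while in the inputs Hepacam and Aqp4 lay close to Dag1. In CPM, Dtna lay above Hepacam in the Control IPs (404.0 and 255.8 on average), so their order depends on the exon length used. Mlc1 was still highest in the Syn IPs, at 36.6 ± 4.1 FPKM, and Hepacam was at 6.47 ± 0.75 FPKM there, beside Dmd at 5.48 ± 0.42 FPKM. The FPKM of Dmd depends on the length used, since a short dystrophin covers only some of the 18975 exon bases.

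Of 14 partners of the dystrophin complex 13 were tested in the Control IP. Of these, 4 were called higher and 2 lower, where 13.4% of all genes were called higher and 13.5% lower, with a median log2 fold change of 0.033 against -0.025 over all genes. Sgca, a sarcoglycan, stood at 2.44 ± 0.24 from a low level of 0.346 TMM-scaled CPM in the inputs. Sntb1, a syntrophin, stood at 1.87 ± 0.11 and Sspn (sarcospan) at 1.44 ± 0.074. Dtnb, the beta-dystrobrevin found in neurons, was called lower at -1.66 ± 0.032, and Sgcz, another sarcoglycan, at -1.14 ± 0.093. Dtnb stood at -0.27 ± 0.045 in the Syn IP, and of the list only Sspn was called there, lower at -1.38 ± 0.12 (all genes 15.8% lower). With ribosomal protein scaling the calls in the Control IP were 7 higher and 0 lower, where 60.1% of all genes were called higher and 4.25% lower. With TMM scaling the calls in the SAPAP3 cohort were 5 higher and 3 lower in WT (all genes 10.9% and 12.1%). In KO they were 4 higher and 2 lower (all genes 12.3% and 11.5%).

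Of 14 enzymes that build the sugar chains of dystroglycan, 13 were tested, none was called higher in the Control IP and B3galnt2 was called lower (-1.02 ± 0.067), with a median of 0.12. The shares of all genes were 13.4% higher and 13.5% lower. None was called in the Syn IP (all genes 0.42% higher and 15.8% lower), with a median of 0.22. Ribosomal protein scaling gave 8 higher and 0 lower in the Control IP and 2 higher and 0 lower in the Syn IP, where 7.49% of all genes were called higher and 10.7% lower on that scale. In the SAPAP3 cohort none was called in WT and 2 were higher in KO with TMM scaling (all genes 10.9% higher in WT and 12.3% in KO).

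Of 14 basement membrane genes other than Agrn, all tested, 5 were called higher in the Control IP and 2 lower (all genes 13.4% and 13.5%), with a median of 0.18. Lamb2 stood at 2.16 ± 0.062 and Lama2 at 1.94 ± 0.057, both chains of laminins. Nid2, a nidogen, stood at 1.28 ± 0.095, and Lamc3 was called lower at -1.60 ± 0.14. Of the same 14, 8 were called lower in the Syn IP and none higher (all genes 15.8% and 0.42%), with a median of -1.04. Lamb2, Lama2, Nid2 and Lamc3 stood at -0.77, -1.04, -1.54 and -1.63 there. Ribosomal protein scaling gave 10 higher and 0 lower in the Control IP (all genes 60.1% and 4.25%) and 2 higher and 4 lower in the Syn IP (all genes 7.49% and 10.7%). With TMM scaling the WT IP had 3 higher and 2 lower (all genes 10.9% and 12.1%) and the KO IP 4 higher and 2 lower (all genes 12.3% and 11.5%).

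Of 8 further membrane proteins of the endfoot, 6 were called higher in the Control IP and 1 lower (all genes 13.4% and 13.5%), with a median of 2.91. Slc1a2, the glutamate transporter GLT1, stood at 3.64 ± 0.062, Atp1b2, a sodium pump subunit, at 3.56 ± 0.061, and Kcnj10, the potassium channel KIR4.1, at 3.20 ± 0.053. Trpv4, a calcium channel with a low level, was the one called lower, at -1.88 ± 0.195. None of the 8 was called in the Syn IP (median -0.66), where Slc1a2, Atp1b2 and Kcnj10 stood at -0.72, -0.55 and -0.87. There 0.42% of all genes were called higher and 15.8% lower. In the SAPAP3 cohort 6 were called higher and none lower in both WT (all genes 10.9% and 12.1%) and KO (all genes 12.3% and 11.5%). Of 11 other aquaporins 3 had enough counts to test. Aqp9 stood at 2.26 ± 0.14 and Aqp1 at 2.17 ± 0.52 in the Control IP, where their mean levels were 5.95 and 0.71 CPM after TMM scaling.

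**Figure D3:**
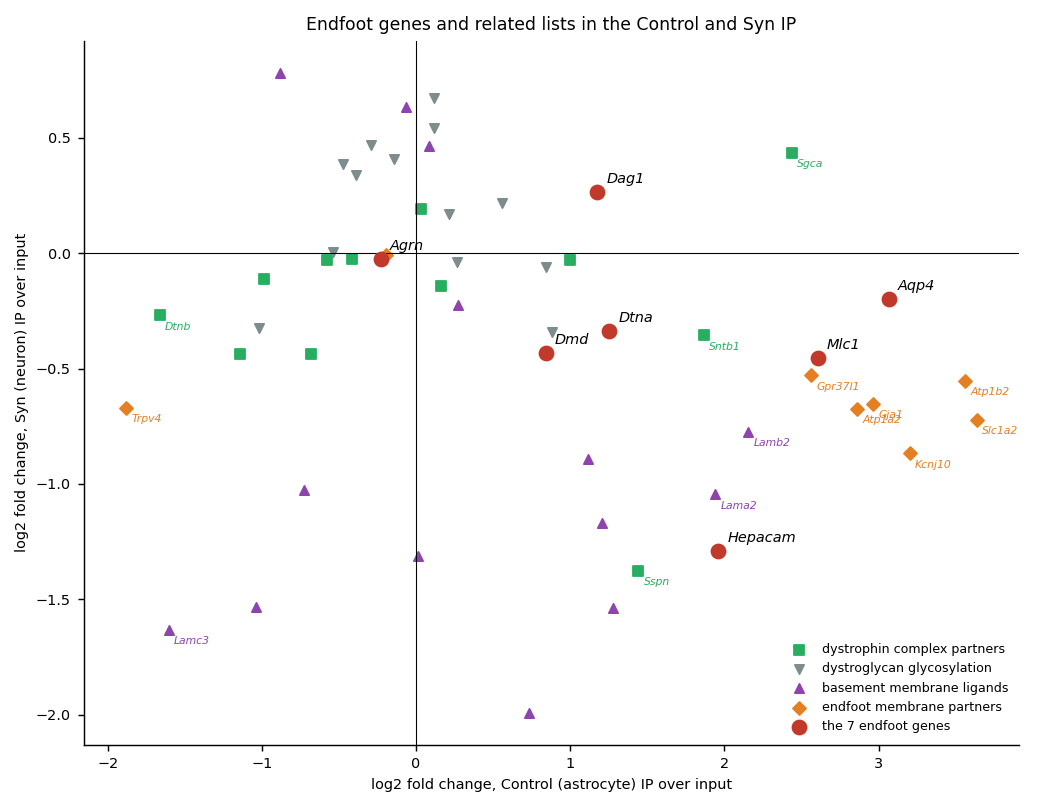
log2 fold change of IP over input in the Control groups (horizontal axis) and in the Syn groups (vertical axis), from edgeR. Red points are the 7 genes, other symbols genes of the related lists. Aqp4 (3.07 and -0.20) and Mlc1 (2.61 and -0.45) lie near the endfoot membrane partners, Hepacam (1.96 and -1.29) lies lower, and Agrn (-0.23 and -0.023) lies near 0 on both axes.

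Dlgap3 KO and WT mice were compared in 3 sets of libraries, with calls at an adjusted p under 0.05 and no fold limit. None of the 7 genes was called in any of them by edgeR or DESeq2, and none had an unadjusted p under 0.05 by edgeR. Over all genes 0.00641% were called in input, 0.0263% in IP and 0% in bulk RNA by edgeR, where 869, 399 and 792 genes had an unadjusted p under 0.05 and DESeq2 called 8, 8 and 17 genes. The edgeR test in bulk RNA thus did not call Dlgap3 either, though it was lower in every KO library. The lack of calls there is weak evidence of no change. KO and WT ranges overlapped for all 7 in each set, and they did not overlap for 4.14%, 1.44% and 3.33% of all genes.

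Aqp4 in the SAPAP3 cohort inputs was at 182.4 to 208.7 CPM in KO and 191.1 to 221.6 CPM in WT, a log2 fold change of -0.05 (95% interval -0.19 to 0.093). The intervals of the other 6 in input reached no further than -0.28 (Agrn) and 0.27 (Dmd). In the IPs the estimates ran from 0.0023 for Dtna to 0.16 for Dmd, and the widest interval was that of Aqp4, -0.17 to 0.38. The enrichment of IP over input did not pass a test of difference between KO and WT for any of the 7, and edgeR called 0% of 16059 genes there (203 at an unadjusted p under 0.05, and 1 called by DESeq2). Those differences (KO minus WT) ran from 0.00013 for Dtna to 0.16 ± 0.15 for Aqp4.

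Aqp4 in bulk RNA averaged 131.0 ± 43.3 CPM in KO and 159.6 ± 7.82 CPM in WT (SD, n = 4). The 4 KO libraries held 96.9, 124.5, 109.0 and 193.6 CPM and the 4 WT libraries 167.3, 151.3, 154.6 and 165.2 CPM. So 3 KO libraries lay below all WT libraries and 1 above them all. The log2 fold change was -0.31 ± 0.18 (95% interval -0.73 to 0.098, adjusted p = 0.984 by edgeR). An exact permutation test of the means, two-sided, gave p = 0.2, or 0.316 adjusted over 49 such tests. Without replicate 4 of the KO libraries the log2 fold change was -0.55 ± 0.092 (adjusted p = 0.439 by edgeR). That library had the highest summed level of ependymal markers (43.6 CPM, against 31.0 to 31.8 CPM in the other KO and 27.9 to 34.1 CPM in the WT libraries) and of astrocyte markers (2501 CPM, against 2136 to 2430 CPM in the other bulk libraries), and their part in its Aqp4 value was not tested. It also held the highest Mlc1 (158.8 CPM, against 123.7 to 137.4 CPM) and Hepacam (80.1 CPM, against 62.7 to 70.5 CPM) of the KO libraries, and the lowest Dag1, Dmd and Agrn.

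**Figure D4:**
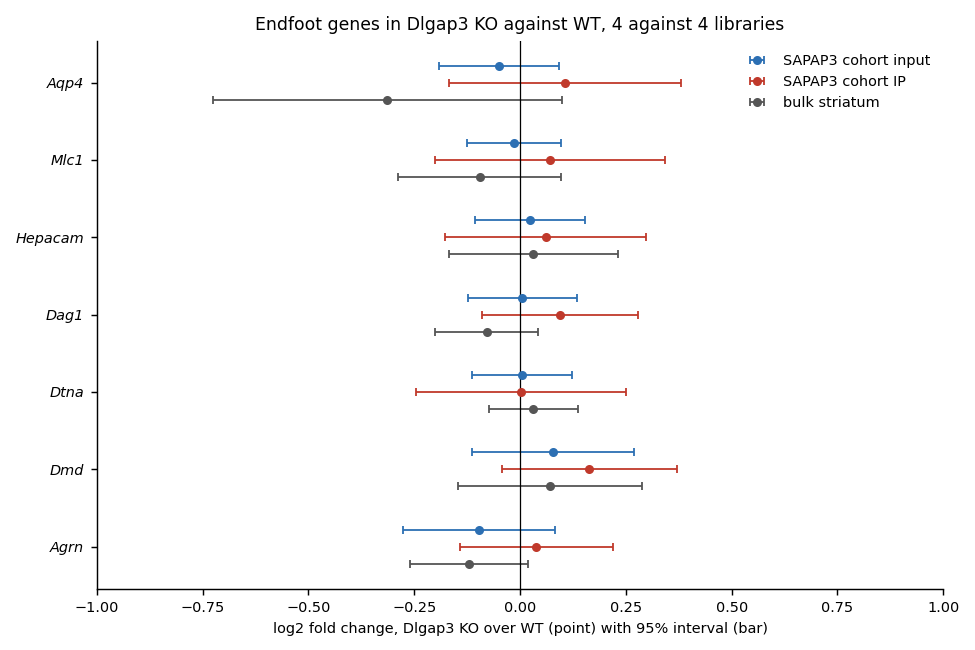
log2 fold change of Dlgap3 KO over WT (horizontal axis) of the 7 genes (vertical axis) in SAPAP3 cohort input, SAPAP3 cohort IP and bulk RNA. Points are edgeR estimates from 4 against 4 libraries and bars their 95% intervals. Every interval includes 0, and that of Aqp4 in bulk RNA is the widest (-0.73 to 0.098).

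The genes most like each member in log2(CPM + 1) over the 40 libraries were found among 11759 genes that averaged 5 CPM or more. The libraries share batches and fall into IPs and inputs, so these Pearson correlations are a description. For Aqp4 they were Slc14a1 (0.986), a urea transporter, Idh1 (0.979), Anxa5 (0.979), Slc12a4 (0.978) and Acss2 (0.977). For Mlc1 they were Apoe (0.997) and Gpr37l1 (0.996), an astrocyte receptor. For Hepacam they were Gprc5b (0.993) and Zhx2 (0.987), for Dtna Amot (0.986) and Ttpa (0.984), and for Dag1 Hcfc1 (0.973) and Slc3a2 (0.971). Dmd was less closely matched, by Zfp760 (0.935) and Arhgap42 (0.928), and Agrn least, by Brat1 (0.865) and Ercc2 (0.858). No member was among the genes most like another member.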

How the data were processed

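The 40 libraries come from striatal tissue of mice. Reads were aligned by the authors with STAR to mm10, and whole-number counts for each gene symbol were deposited (24060 rows, 24058 symbols). HTSeq is among the tools in the submitters' processing notes. The annotation, versions, strand setting and treatment of multiply aligned reads are not given in the sources used here. The library kit named in the methods differs from the one in the labels. No annotated near-identical copy of the 7 genes was found.

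CPM were computed from library totals, and FPKM from merged exon lengths of RefSeq GRCm38.p6 (found for 23874 of 24058 symbols). Counts were tested in R 4.3.3 with edgeR 4.0.16 (filterByExpr, TMM, glmQLFit and glmQLFTest), each fit holding the groups compared. Exact permutation tests, two-sided, were run on CPM, and 4 against 4 libraries can reach p = 0.0286 at the lowest. The scripts were tested on simulated data. Alternatives were library totals, scaling to 75 ribosomal protein genes, limma-voom (limma 3.58.1), the Wald test of DESeq2 1.42.0, no filter, FPKM above 5 in at least 4 libraries, all 10 groups in one fit, Xist as a covariate, a replicate block and leaving out each library.

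IP and input share an animal in the Control and SAPAP3 cohorts and a title number in the Syn cohort. Over 11762 genes, the deviations of IP and input from their group means correlated at 0.252 to 0.788 in every pair. In the Syn cohort the pairs of the same number averaged 0.65, and each of the 4 IPs matched the input of its own number best. Whether this reflects a shared animal in the Syn cohort, where the animal numbers differ, was not tested. The main fits held no term for the pairs, so their SE and p-values are unpaired, and the replicate block was an alternative. No libraries of a group were identical (60 pairs).

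All 7 genes are named in every comparison. From the other lists, genes called in the Control IP could be named, those of largest log2 fold change first, and 1 gene counted in the lists is not reported here by name. The genes and lists were chosen with earlier results of these data known. P-values set a difference between groups against the spread between these libraries.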

Additional observations from a re-analysis of the deposited data

Results flagged for a closer look

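Of 70 sets of 4 libraries (7 genes in 10 groups), 1 held a library far from the others by Dixon's test, where chance gives about 1 in 20. Mlc1 was at 151.3 CPM in replicate 1 of the SAPAP3 cohort WT inputs and at 133.6 to 135.4 CPM in the other 3.

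The enrichment of IP over input differed between the Control and Syn mice for all 7 genes, by 3.26 for Aqp4, 3.25 for Hepacam, 3.06 for Mlc1, 1.59 for Dtna, 1.28 for Dmd, 0.91 for Dag1 and -0.20 for Agrn (log2, Control minus Syn, edgeR interaction term). It differed between the Control mice and the SAPAP3 cohort WT mice for 4 genes, by 0.44 for Aqp4, 0.48 for Dmd, 0.39 for Dtna and -0.33 for Agrn (log2, Control minus WT).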

How the results depend on the processing

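Of the log2 fold changes of the 7 genes under the alternatives, 1206 kept their direction and their side of the threshold, 11 lost it, 9 passed it and 62 turned in sign. Scaling to ribosomal protein genes moved the median of all genes to 1.17 (Control IP), 0.45 (Syn IP), 0.71 (WT IP) and 0.62 (KO IP) on the log2 scale. Scaling to ribosomal protein genes turned the sign of Agrn 0.97 (Control IP), Aqp4 0.26, Dmd 0.013, Dtna 0.12, Mlc1 0.0027, Agrn 0.43 (Syn IP), Aqp4 0.0044, Mlc1 0.036 (KO over WT input), Dtna -0.019 (KO over WT IP), Agrn 0.54 (Control against Syn), Dtna -0.071, Hepacam -0.032 (KO against WT enrichment), Agrn 0.14 (Control against SAPAP3 cohort WT). It called 9952 genes against 4157 (Control IP), 0 of the 7 genes against 1 (Syn IP), 5904 genes against 3590 (WT IP), 8794 genes against 3280 (Control against SAPAP3 cohort WT). The FPKM filter turned the sign of Dag1 -0.010, Dtna -0.011 (KO over WT input), Dtna -0.0026 (KO over WT IP). It called 1702 genes against 4157 (Control IP), 507 genes against 2635 (Syn IP), 1270 genes against 3590 (WT IP), 1423 genes against 3713 (KO IP), 2 genes against 4 (KO over WT IP), 7172 genes against 11469 (Control against Syn). Library totals turned the sign of Agrn -0.084 (WT IP), Dag1 -0.024, Dtna -0.024, Hepacam -0.0058 (KO over WT input), Dtna -0.017 (KO over WT IP). DESeq2 turned the sign of Dtna -0.0033 (KO over WT IP). It called 8 genes against 1 (KO over WT input), 8 genes against 4 (KO over WT IP), 17 genes against 0 (KO over WT bulk), 1 gene against 0 (KO against WT enrichment). Fitting all 10 groups together turned the sign of Dtna -0.00034 (KO over WT IP), Dtna -0.0032 (KO against WT enrichment). It called 8 genes against 1 (KO over WT input), 18 genes against 0 (KO over WT bulk), 1 gene against 0 (KO against WT enrichment). Xist as a covariate turned the sign of Dag1 -0.0083 (KO over WT input), Agrn -0.0057 (KO over WT IP), Hepacam -0.043 (KO over WT bulk). It called 1 gene against 4 (KO over WT IP). limma-voom turned the sign of Dtna -0.0010 (KO over WT IP), Dtna -0.0027 (KO against WT enrichment). No filter turned the sign of Dtna -0.0072 (KO against WT enrichment). The replicate block turned the sign of Dtna -0.0017 (KO against WT enrichment). It called 4980 genes against 3280 (Control against SAPAP3 cohort WT). The cause of these changes was not tested. Leaving out each library in turn gave 0 to 1 genes (KO over WT input), Dag1 -0.040 to 0.048 (KO over WT input), Dmd -1.8e-06 to 0.13 (KO over WT input), Dtna -0.017 to 0.036 (KO over WT input), Mlc1 -0.031 to 0.017 (KO over WT input), Hepacam -0.0025 to 0.057 (KO over WT input), 0 to 3 genes (KO over WT IP), Dtna -0.078 to 0.087 (KO over WT IP), Mlc1 -0.027 to 0.16 (KO over WT IP), Agrn -0.018 to 0.082 (KO over WT IP), 0 to 1 genes (KO over WT bulk), Hepacam -0.028 to 0.079 (KO over WT bulk), Dtna -0.078 to 0.088 (KO against WT enrichment), Mlc1 -0.0094 to 0.18 (KO against WT enrichment), Hepacam -0.029 to 0.11 (KO against WT enrichment). With the replicate block, Aqp4 in the Syn IP stood at -0.20 (adjusted p = 0.000627 by edgeR), and no call of the 7 genes changed. In the genotype comparisons the signs that turned belong to values near 0, none of them called.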
